A study of Mus musculus with 6 samples.

Results

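NF-kB is a family of transcription factors that work as pairs of subunits encoded by Nfkb1, Nfkb2, Rel, Rela and Relb. In resting cells, inhibitor proteins of the IκB type hold most of these pairs in the cytoplasm, and the IκB kinase complex marks the inhibitors for destruction after signals from Toll-like receptors, the interleukin-1 receptor or the tumour necrosis factor receptors. The released pairs switch on cytokine, chemokine and survival genes, and also genes of their own inhibitors, which ends the response. In microglia, the resident macrophages of the brain, this pathway is known for its part in the response to LPS and to cytokines. The genes described here are the 5 subunit genes and 5 genes of inhibitors, Nfkbia, Nfkbid, Nfkbie, Nfkbiz and Tnfaip3. They were picked by symbol from the 55401 genes of the count table, and all 10 were found and were among the 19554 genes with enough counts to be tested.

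RNA was sequenced from CD11b-selected brain cells of MRL/lpr mice, which are homozygous for the lpr mutation of Fas and develop lupus, and of MRL/mpj mice, which share the MRL background without that mutation. The labels give an age of 6 weeks and no treatment for both strains, with 3 libraries per strain. According to the methods the mice were female, and the brains were digested with collagenase and DNase with warming before a Percoll gradient and magnetic selection. The labels do not say whether a library holds 1 animal or a pool, so p-values measure only the spread between these libraries, and in such bulk samples fewer cells of a type and less RNA per cell cannot be told apart.

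The libraries held between 45481609 and 49846634 counts. The 10 genes together made up 0.51% to 0.627% of an MRL/lpr library and 0.313% to 0.328% of an MRL/mpj library. MRL/lpr replicate 3 stood apart from the other libraries, with 6.38% of its counts in a single gene, against at most 1.95% elsewhere. Mitochondrial genes took 3.06% to 3.49% of the MRL/lpr counts and 5.84% to 6.38% of the MRL/mpj counts. Fas itself was counted 282 to 461 times in MRL/lpr and 362 to 432 times in MRL/mpj, and such counts take mutant and intact transcripts together. Xist, chosen after its values were seen, the RNA that silences an X chromosome in females, was counted 8886 to 11319 times in MRL/lpr and 27 to 38 times in MRL/mpj, and 4 Y-linked genes together had 8408 to 11783 and 13155 to 15046 counts. Female mice carry no Y-linked genes, so these values go against the recorded sex, and strain and sex cannot be told apart. Each MRL/lpr library held Xist and Y-linked counts together, while the MRL/mpj libraries held Y-linked counts with little Xist. Whether a library mixes animals of both sexes was not tested. Of 16 microglia markers, 5 were lower in MRL/lpr (31.3%, against 9.06% of all tested genes at an adjusted p under 0.05 in edgeR) while no other passed the test. Their summed level was 30223 to 34030 CPM against 35541 to 36553 CPM.

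All 10 genes were higher in the MRL/lpr libraries, with fold changes from 1.30 for Rela to 3.31 for Nfkbiz. The quasi-likelihood test of edgeR, with p-values adjusted by Benjamini-Hochberg over all tested genes, gave each an adjusted p under 0.05, where 11.1% of all tested genes were higher by that rule and 9.06% were lower. The lowest MRL/lpr library exceeded the highest MRL/mpj library for each of the 10 genes, as it did for 19.6% of all tested genes, while 19.4% lay apart in the other direction. The median log2 fold change was 0.87 over the 10 genes, 0.84 over the subunits and 0.90 over the inhibitors, against -0.01 over all tested genes. With the study's additional minimum of a log2 fold change of 1, 3 of the 10 passed, namely Nfkbiz, Nfkbid and Rel, where 4.67% of all tested genes were higher and 3.66% lower by that rule. Rel lay just inside this minimum at 1.002 and Nfkb2 just outside at 0.987. With DESeq2, the tool that the study's methods name, Rel was at 0.995 and 2 of the 10 genes passed. When libraries were scaled by their size alone, the median of all tested genes moved to -0.13, 9 of the 10 genes were called and Nfkbiz alone passed the minimum.

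**Figure D1:**
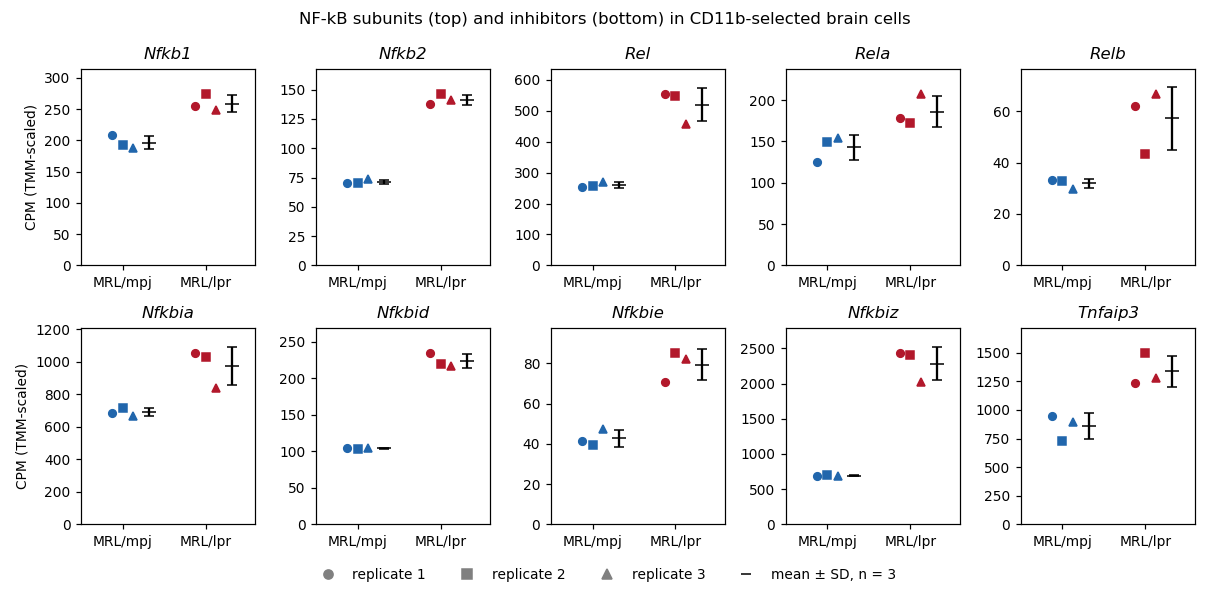
Level of each gene in CPM (counts per 1000000 counts of the library, TMM-scaled, y axes starting at 0) in the 3 MRL/mpj libraries (blue) and the 3 MRL/lpr libraries (red), with subunits in the top row and inhibitors in the bottom row. Marker shapes give the replicate, and black bars give the mean ± SD of 3 libraries. In each panel the red points lie above the blue points, and the distance is greatest for Nfkbiz, at 2283 against 690 CPM.

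Promoter windows were examined because several genes of this pathway are known targets of NF-kB. RefSeq windows on GRCm38.p6, each running from 250 bases before a start site to 50 bases after it, were at hand for 7 of the 10 genes, with 12 windows in all. Nfkb1, Relb and Nfkbiz were not in the table. A κB pattern of GGG, 3 bases of any kind and TTCC, which covers many κB sites, was searched on both strands. It occurred in 9 of the 12 windows, against 5.56% of all 32851 windows, and in 6 of the 7 genes, against 6.31% of all genes with a window. A narrower pattern of GGG, 2 bases of any kind and TTTCC occurred in 6 of the 12 windows against 1.63% of all windows. By gene this was 4 of the 7, against 1.89% of all genes with a window. The κB site of the immunoglobulin kappa light chain enhancer, which both patterns contain, occurred in 2 windows of Nfkb2, which overlap and share the site, against 0.155% of all windows. The following are the 250 bases before a start site, 5′ to 3′ on the strand of the gene, with matches to the wider pattern, on either strand, in capitals. They are shown for Nfkb2, Rel, Nfkbia and Nfkbid, whose windows hold a match, and for Rela, whose window holds none.
Nfkb2, plus strand, chr19:46304487-46304736: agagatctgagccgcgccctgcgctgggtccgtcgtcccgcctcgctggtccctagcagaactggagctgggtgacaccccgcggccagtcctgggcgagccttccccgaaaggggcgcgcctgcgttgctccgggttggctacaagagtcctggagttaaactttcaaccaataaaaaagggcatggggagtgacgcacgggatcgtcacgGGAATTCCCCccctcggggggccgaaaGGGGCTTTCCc
Rel, minus strand, chr11:23770970-23771219: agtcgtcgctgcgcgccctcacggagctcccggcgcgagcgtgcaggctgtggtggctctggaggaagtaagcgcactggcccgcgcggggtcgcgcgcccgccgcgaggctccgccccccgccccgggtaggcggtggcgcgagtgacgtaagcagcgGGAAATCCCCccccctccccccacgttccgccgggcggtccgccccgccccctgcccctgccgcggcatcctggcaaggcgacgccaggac
Nfkbia, minus strand, chr12:55492648-55492897: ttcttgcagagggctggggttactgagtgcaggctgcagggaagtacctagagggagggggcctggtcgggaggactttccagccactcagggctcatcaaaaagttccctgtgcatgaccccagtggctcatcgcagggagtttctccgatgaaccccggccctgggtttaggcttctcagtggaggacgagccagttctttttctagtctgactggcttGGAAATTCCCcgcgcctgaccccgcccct
Nfkbid, plus strand, chr7:30422156-30422405: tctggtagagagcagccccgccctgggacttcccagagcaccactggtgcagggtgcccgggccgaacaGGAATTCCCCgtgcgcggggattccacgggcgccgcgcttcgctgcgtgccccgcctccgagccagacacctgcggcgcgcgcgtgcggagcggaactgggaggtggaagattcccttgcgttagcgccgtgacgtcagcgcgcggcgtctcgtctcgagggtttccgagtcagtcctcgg
Rela, plus strand, chr19:5637291-5637540: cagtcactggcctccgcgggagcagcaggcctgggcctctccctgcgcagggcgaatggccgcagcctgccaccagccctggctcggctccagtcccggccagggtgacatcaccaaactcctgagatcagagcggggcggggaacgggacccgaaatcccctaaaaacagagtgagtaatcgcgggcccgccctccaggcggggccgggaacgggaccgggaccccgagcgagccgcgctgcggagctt

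Read on the strand that carries the motif, the match of Nfkbia was GGGAATTTCC, which ended 20 bases before the start, and that of Rel was GGGGATTTCC, which ended 82 bases before it. The first window of Nfkb2 held GGGGAATTCC and GGGGCTTTCC. GGGGGATTCC in Nfkbie and GGGGATTTCC in Tnfaip3 ended 97 and 3 bases before their starts. A match is a run of letters and was not tested for binding, and the absence of a match in the window of Rela says only that these letters are not in it. Of the windows of the other pathway lists, the wider pattern was in 7 of 40 for upstream signalling, 4 of 24 for other inhibitors and 11 of 43 for target genes. It was in 0 of the 23 windows of a list of tissue dissociation genes that is described further on.

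**Figure D2:**
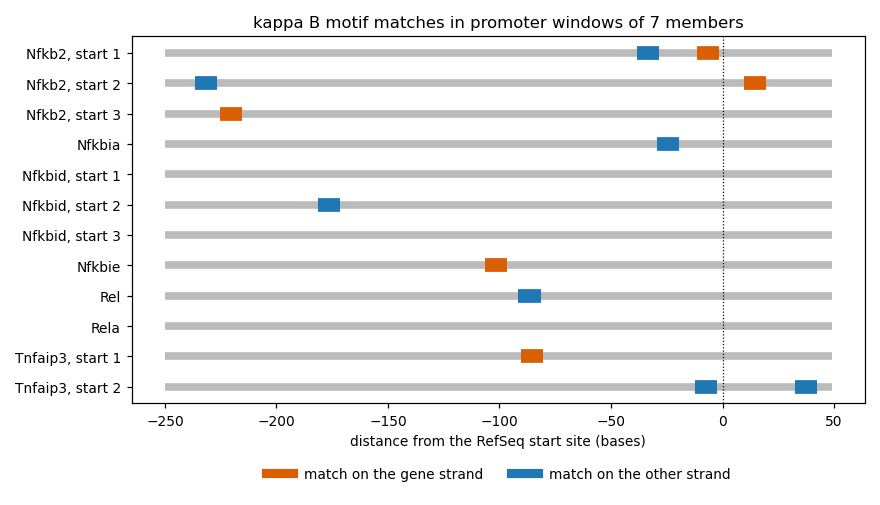
Matches to GGG, 3 bases of any kind and TTCC in the 12 promoter windows of 7 genes, by distance in bases from the RefSeq start site (dotted line). Grey bars are the windows, orange marks matches on the strand of the gene and blue marks matches on the other strand, and the starts of a gene are numbered by genome coordinate. Matches appear in 9 windows, and Rela and 2 of the 3 windows of Nfkbid have none.

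Among the subunits, Rel and Nfkb2 had the largest fold changes and were not separated from each other. Without MRL/lpr replicate 1 the log2 fold change was 0.956 for Rel and 1.009 for Nfkb2, and without MRL/lpr replicate 2 that of Relb, at 1.009, exceeded both. Rel (ENSMUSG00000020275, chr11:23736847-23770970, GRCm38) encodes c-Rel, a subunit with a transactivation domain that is prominent in lymphocytes and activated myeloid cells. It had 553, 547 and 458 CPM in MRL/lpr replicates 1, 2 and 3 and 252, 257 and 269 CPM in the MRL/mpj replicates. The groups did not overlap, and MRL/lpr replicate 3 was the lowest of its strain. The log2 fold change was 1.002 ± 0.08 (SE, adjusted p = 3.09e-05), or 2.002-fold with a 95% interval of 1.76 to 2.27.

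Nfkb2 (ENSMUSG00000025225, chr19:46304320-46312385) encodes a precursor that is cut to the partner of RelB in the non-canonical pathway. Its level was 137, 146 and 141 CPM in MRL/lpr replicates 1, 2 and 3 and 70.0, 70.7 and 73.4 CPM in the MRL/mpj replicates. The replicates of each strain lay close together, with coefficients of variation of 3.06% and 2.47%. The log2 fold change was 0.99 ± 0.07 (SE, adjusted p = 1.04e-05), or 1.98-fold. Nfkb2 shares 299 bases of exon with Psd, a gene on the opposite strand that had a log2 fold change of 0.88 ± 0.09 (SE, adjusted p = 9.64e-05). It shares a further 531 bases with the noncoding RNA AC114539.1. The sources used here do not say whether counting took account of strand, so reads from these bases could have been assigned to either gene.

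Relb (ENSMUSG00000002983, chr7:19606217-19629438), which encodes the subunit that pairs with the product of Nfkb2, was the least abundant of the 10 genes. It was measured at 61.8, 43.2 and 66.5 CPM in MRL/lpr replicates 1, 2 and 3 and at 33.1, 32.7 and 29.8 CPM in the MRL/mpj replicates. MRL/lpr replicate 2 lay below the other MRL/lpr libraries but above each MRL/mpj library, and the coefficient of variation of 21.6% in MRL/lpr was the largest of the 10 genes. The log2 fold change was 0.84 ± 0.15 (SE, adjusted p = 0.00372).

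Nfkb1 and Rela, which encode the subunits of the most common NF-kB pair, rose least of the subunits. Nfkb1 (ENSMUSG00000028163, chr3:135584655-135691547) had 255, 274 and 248 CPM in MRL/lpr replicates 1, 2 and 3 and 209, 193 and 188 CPM in the MRL/mpj replicates, a log2 fold change of 0.40 ± 0.07 (SE, adjusted p = 0.00319). Rela (ENSMUSG00000024927, chr19:5637483-5648130) had 178, 173 and 207 CPM against 126, 149 and 154 CPM, a log2 fold change of 0.38 ± 0.10 (SE, adjusted p = 0.0239). For Rela the highest MRL/lpr library was replicate 3, in which Rel was lowest. The lowest MRL/lpr value of Rela was 1.12 times the highest MRL/mpj value, the narrowest gap of the 10 genes. Rela did not pass the test without MRL/mpj replicate 1 (adjusted p = 0.0925), without MRL/mpj replicate 2 (adjusted p = 0.0613) or with scaling by library size only (adjusted p = 0.0807).

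The inhibitors differed more widely among themselves. Nfkbiz (ENSMUSG00000035356, chr16:55811375-55838899) encodes IκBζ, a nuclear member of the IκB family. IκBζ is induced by Toll-like receptor and interleukin-1 signals and acts at selected promoters. Nfkbiz is listed with the inhibitors by its family, although some NF-kB target genes depend on IκBζ in macrophages. The level of Nfkbiz was 2429, 2406 and 2015 CPM in MRL/lpr replicates 1, 2 and 3 and 683, 699 and 688 CPM in the MRL/mpj replicates. The lowest MRL/lpr library was 2.88 times the highest MRL/mpj library. Its log2 fold change of 1.73 ± 0.08 (SE, adjusted p = 1.14e-06) was a 3.31-fold difference with a 95% interval of 2.93 to 3.74, and this interval lay above those of the other 9 genes.

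Nfkbid (ENSMUSG00000036931, chr7:30421732-30428746), which encodes the related nuclear IκB protein IκBNS, came next. Its level was 234, 219 and 216 CPM in MRL/lpr replicates 1, 2 and 3 and 104, 103 and 105 CPM in the MRL/mpj replicates. Replicates agreed closely in both strains, and the log2 fold change was 1.103 ± 0.06 (SE, adjusted p = 4.11e-06), or 2.15-fold. Both genes of nuclear IκB proteins were thus past the fold-change minimum, where none of the other 3 genes listed as inhibitors was.

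Nfkbie and Nfkbia encode IκBε and IκBα, the cytoplasmic inhibitors that are destroyed after IκB kinase acts. Nfkbie (ENSMUSG00000023947, chr17:45555703-45563169) was at 71.0, 85.1 and 82.4 CPM in MRL/lpr replicates 1, 2 and 3 and at 41.3, 39.4 and 47.5 CPM in the MRL/mpj replicates, a log2 fold change of 0.90 ± 0.10 (SE, adjusted p = 0.000288). Nfkbia (ENSMUSG00000021025, chr12:55489410-55492647) was at 1052, 1029 and 842 CPM against 687, 717 and 667 CPM, a log2 fold change of 0.50 ± 0.09 (SE, adjusted p = 0.00316). As with Rel and Nfkbiz, MRL/lpr replicate 3 had the lowest Nfkbia level of its strain, while it had neither the lowest nor the highest Nfkbie level. The 95% interval of the fold difference was 1.58 to 2.19 for Nfkbie and 1.23 to 1.62 for Nfkbia.

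Tnfaip3 (ENSMUSG00000019850, chr10:19000910-19015657) encodes a ubiquitin-editing enzyme that shuts off signalling upstream of the IκB kinase complex. It had 1237, 1494 and 1277 CPM in MRL/lpr replicates 1, 2 and 3 and 943, 731 and 897 CPM in the MRL/mpj replicates. The groups did not overlap, and the spread in MRL/mpj, a coefficient of variation of 13%, was the largest of the 10 genes in that strain. The log2 fold change was 0.64 ± 0.11 (SE, adjusted p = 0.00271), and without MRL/lpr replicate 3 it was 0.68 with an adjusted p of 0.0585 from edgeR.

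**Figure D3:**
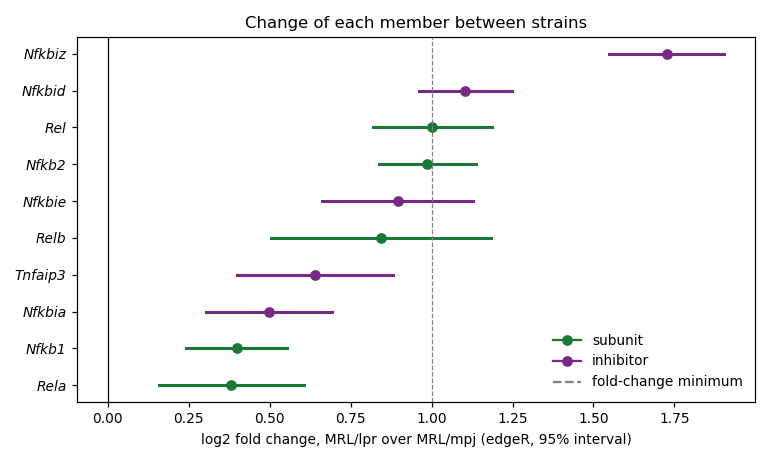
Log2 fold change of MRL/lpr over MRL/mpj for each gene (points) with its 95% interval from edgeR (lines), subunits in green and inhibitors in purple. The dashed line is the fold-change minimum of 1, which the points of Nfkbiz, Nfkbid and Rel reach, and each interval lies above 0.

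Levels of different genes can be compared with the deposited FPKM values, which divide counts by gene length. Nfkbia was the most abundant of the 10 transcripts in both strains, at 519 ± 76.6 FPKM (SD, n = 3) in MRL/lpr and 399 ± 14.5 FPKM (SD, n = 3) in MRL/mpj. Nfkbiz followed at 390 ± 51.3 FPKM (SD, n = 3) and 128 ± 1.56 FPKM (SD, n = 3), and Tnfaip3 came after them in both. The inhibitors except Nfkbie thus stood at the top of the order in MRL/lpr, with Nfkbid next at 81.5 ± 5.49 FPKM (SD, n = 3). Rel and Rela followed at 59.7 ± 7.85 and 51.7 ± 3.47 FPKM (SD, n = 3), and their ranges overlapped. In MRL/mpj the order of this middle group was different, with Rela at 43.2 ± 4.59 FPKM, Nfkbid at 41.2 ± 0.49 FPKM and Rel at 32.3 ± 1.13 FPKM (SD, n = 3), and the ranges of Rela and Nfkbid overlapped there. Nfkb2, Nfkbie and Nfkb1 lay between 12.03 and 27.74 FPKM in each library, with overlapping neighbours in MRL/mpj only. Relb was last in both strains, at 12.5 ± 2.49 and 7.62 ± 0.442 FPKM (SD, n = 3).

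The make-up of the subunit transcripts was compared by the share of each gene. Rel accounted for 37.2%, 37.6% and 31.1% of the summed FPKM of the 5 subunits in MRL/lpr replicates 1, 2 and 3 and for 29.1%, 28.1% and 28.8% in the MRL/mpj replicates. The share of Rela was 29.1%, 28.8% and 34.2% in MRL/lpr and 35.3%, 39.5% and 39.9% in MRL/mpj. Rel therefore exceeded Rela in MRL/lpr replicates 1 and 2, and Rela exceeded Rel in MRL/lpr replicate 3 and in each MRL/mpj library. The ratio of Nfkb2 to Nfkb1 was 1.40 to 1.49 in MRL/lpr and 0.882 to 1.03 in MRL/mpj. The shares of Rel, Rela, Nfkb1 and Nfkb2 did not overlap between the strains, while those of Relb did. In a two-sided exact permutation test of the strain difference, each of these 4 shares reached p = 0.1, the smallest that 3 libraries against 3 allow, with an adjusted p of 0.143 over the 10 shares compared.

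Among the inhibitors, the share of Nfkbiz was 33.8%, 33.1% and 32.9% of the summed inhibitor FPKM in MRL/lpr replicates 1, 2 and 3 and 18.1%, 18.8% and 18.6% in the MRL/mpj replicates. The share of Nfkbia was 45.6%, 44.2% and 42.8% against 56.8%, 60.0% and 56.3%. The ratio of Nfkbiz to Nfkbia within a library ran from 0.741 to 0.768 in MRL/lpr and from 0.313 to 0.331 in MRL/mpj, so MRL/lpr replicate 3, in which both were lowest, kept the ratio of its strain. The shares of Nfkbiz, Nfkbia and Nfkbid did not overlap and had p = 0.1 and an adjusted p of 0.143 in the exact permutation test. Those of Tnfaip3 and Nfkbie overlapped, with p = 0.3 and 0.9 (adjusted p = 0.375 and 0.9, exact permutation test). The summed inhibitor FPKM, in which Nfkbiz is included, was 6.19 to 7.42 times the summed subunit FPKM in MRL/lpr. It was 5.87 to 6.50 times in MRL/mpj, and these ranges overlapped.

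**Figure D4:**
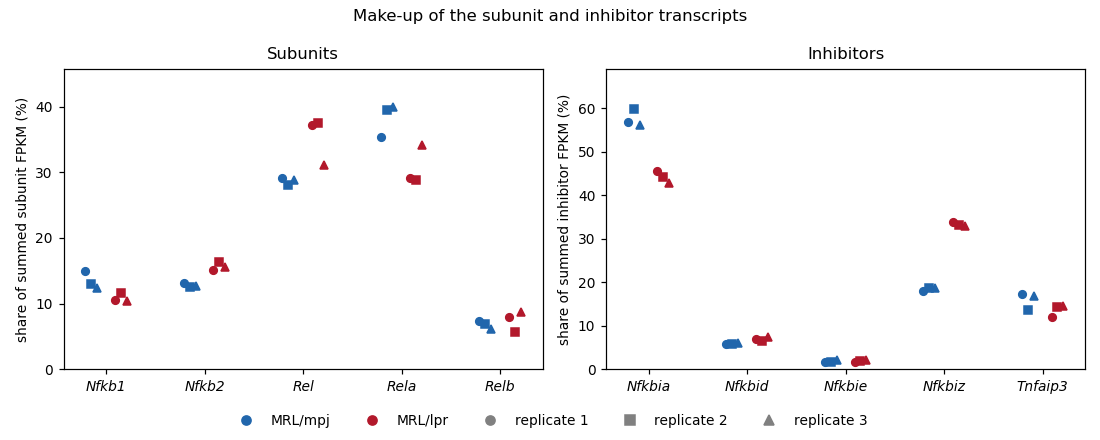
Share of each gene in the summed FPKM of the 5 subunits (left) and of the 5 inhibitors (right), in percent, for each MRL/mpj library (blue) and each MRL/lpr library (red), with marker shapes giving the replicate. Nfkbiz makes up 32.9% to 33.8% of the inhibitor FPKM in MRL/lpr and 18.1% to 18.8% in MRL/mpj, and the shares of Relb, Nfkbie and Tnfaip3 overlap between the strains.

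The receptors, adaptors and kinases that act upstream were taken as a list. Of 42 genes of upstream signalling, 10 were higher, 23.8% against 11.1% of all tested genes. In edgeR 0 genes of the list were lower, also at an unadjusted p under 0.05, and 0 were lower by DESeq2. Their median log2 fold change was 0.13. Without MRL/mpj replicate 2 the number of higher genes was 6, where 1647 of all 20450 tested genes were higher, against 2178 of 19554 with all libraries. The genes of the IκB kinase complex did not pass the test. The log2 fold change was -0.18 for Chuk (adjusted p = 0.204), 0.18 for Ikbkb (adjusted p = 0.132) and -0.26 for Ikbkg (adjusted p = 0.222). Map3k14, the kinase that starts the non-canonical pathway, had a log2 fold change of 0.19 ± 0.08 (SE, adjusted p = 0.129). Cd40, a receptor that feeds this pathway, was the only gene of the list past the fold-change minimum. This was 2.38% of the list, against 4.67% of all tested genes. Its raw counts were 181, 175 and 188 in MRL/lpr and 130, 66 and 99 in MRL/mpj, and it rose by 1.07 on the log2 scale. Among the other higher genes, named after their values were seen, were the receptor genes Tlr2, Cd14 and Tnfrsf11a and the adaptor and ligase genes Traf1, Traf6, Ticam1, Birc3 and Rnf31. These rose by between 0.416 for Rnf31 and 0.998 for Traf1 on the log2 scale, and Tlr2, a receptor for bacterial lipoproteins, rose by 0.996. In edgeR 32 genes of the list did not pass the test. Among them, also named after their values were seen, were the receptor genes Tlr4, Il1r1, Tnfrsf1a and Tnfrsf1b. Their log2 fold changes were -0.17, -0.13, 0.11 and -0.04 (adjusted p = 0.934, 0.385, 0.400 and 0.780).

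Of 28 genes of other inhibitors and of regulators of the pathway, 7 were higher, 25% against 11.1% of all tested genes, with a median log2 fold change of 0.20. In edgeR 0 were lower, also at an unadjusted p under 0.05, and 0 by DESeq2. The number of higher genes was 4 without MRL/mpj replicate 2, where fewer of all tested genes were called higher as well. Nfkbib, which encodes IκBβ, was counted 4390, 4174 and 3711 times in MRL/lpr and 2234, 2446 and 2359 times in MRL/mpj. The groups did not overlap, and its log2 fold change was 0.98 ± 0.08 (SE, adjusted p = 2.91e-05). Bcl3, an atypical nuclear IκB protein that binds the short subunits, rose by 1.09, from 8.71 to 18.6 CPM. Together with Nfkbib and Bcl3, each of the 6 IκB genes considered here was therefore higher in MRL/lpr. Zc3h12a, which encodes an RNase that degrades inflammatory mRNAs, Nfkbiz mRNA among them, rose by 1.65 ± 0.06 (SE, adjusted p = 4.66e-07). Tnip3, which encodes a partner of the protein encoded by Tnfaip3, rose by 1.97 but had only 10 to 20 counts in the MRL/mpj libraries. The other 3, chosen after their values were seen, were Zfp36, Tnip1 and Peli1, which rose by 0.73, 0.32 and 0.25, and Zfp36 is also on the tissue dissociation list. Cyld and Otulin, which encode deubiquitinating enzymes that restrain the pathway and were also chosen after their values were seen, did not pass the test, at 0.29 (adjusted p = 0.168) and 0.23 (adjusted p = 0.168).

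Of 50 genes known as NF-kB targets, 47 were tested, and 25 were higher and 1 was lower. This was 53.2% higher against 11.1% of all tested genes, and 10 passed the fold-change minimum, 21.3% against 4.67%. Their median log2 fold change was 0.53. The cytokine gene Il6 rose most, from 3.37 to 16.5 CPM, a log2 fold change of 2.29 ± 0.21 (SE, adjusted p = 6.9e-05). Bcl2a1b, a survival gene with near-identical copies among which reads could have been split, rose by 1.87. Its copy Bcl2a1d, named after its values were seen, had a log2 fold change of -0.05 (adjusted p = 0.886). The costimulatory gene Cd80 rose by 1.70, the cytokine gene Il10 by 1.54 and Ptgs2, which encodes an enzyme of prostaglandin synthesis, by 1.37. Tnf, Plau, Cd83, Cxcl16 and Icam1, named after their values were seen, rose by 1.30, 1.31, 1.19, 1.06 and 1.03. Nos2, the inducible nitric oxide synthase, was the gene that fell, from 2.73 to 0.935 CPM, a log2 fold change of -1.55 ± 0.28 (SE, adjusted p = 0.00402). Some further targets were chosen after their values were seen and did not pass the test. Lcn2 had a log2 fold change of 0.00 ± 0.08 (SE, adjusted p = 0.98), and Cxcl10 had one of 0.05 (adjusted p = 0.811).

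Genes that respond to tissue dissociation moved with the NF-kB genes. Immediate-early and heat shock genes, which include several AP-1 subunits, are known to rise when brain tissue is digested with warming. Of 23 such genes, 22 were higher in MRL/lpr, 95.7% against 11.1% of all tested genes, and the remaining gene, Egr2, named after its values were seen, had a log2 fold change of 0.29 (adjusted p = 0.827). The 22 rose by between 0.66 and 1.17 on the log2 scale, and their median of 0.87 over 23 genes equals that of the 10 NF-kB genes. Their summed level was 64818 to 73887 CPM in the MRL/lpr libraries and 37935 to 40044 CPM in the MRL/mpj libraries. Divided by this sum within each library, a scale chosen after the data were seen, 3 of the 10 NF-kB genes stayed above the MRL/mpj libraries without overlap, namely Rel, Nfkbid and Nfkbiz. On that scale Nfkb1, Rela and Nfkbia were lower without overlap, and Nfkb2, Relb, Nfkbie and Tnfaip3 overlapped. Of all tested genes, 3.9% were higher and 67.9% were lower without overlap on it. Nfkbiz was at 31.1 to 33.0 per 1000 of the sum in MRL/lpr and 17.4 to 18.0 per 1000 in MRL/mpj, and Rel at 7.073 to 7.505 and 6.428 to 7.067 per 1000, nearly touching. The part of dissociation in the changes of the NF-kB genes was not tested.

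**Figure D5:**
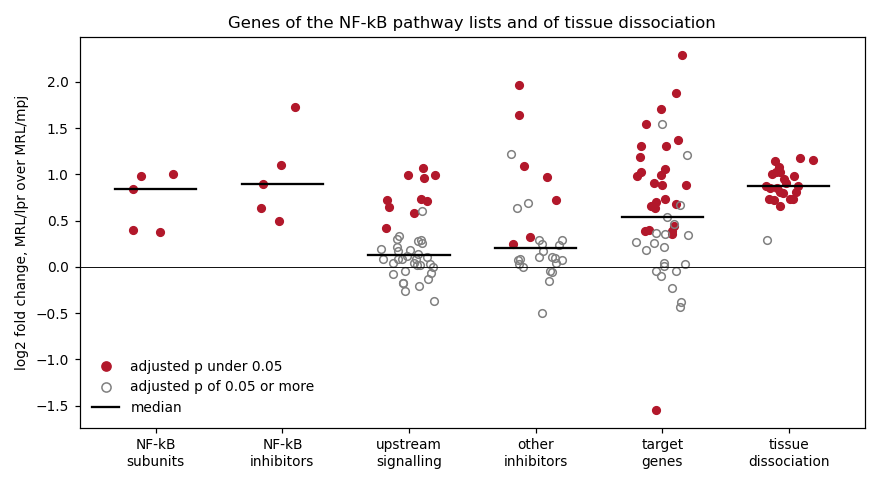
Log2 fold change of MRL/lpr over MRL/mpj for each tested gene of 6 lists, with filled red points for an adjusted p under 0.05 in edgeR, open grey points for the rest, and black lines at the medians. The 10 NF-kB genes and 22 of the 23 tissue dissociation genes are filled and above 0, while 10 of the 42 genes of upstream signalling are filled.

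Markers of other cell types were compared because lymphocytes and dendritic cells also express NF-kB genes, Rel and Relb among them. The counts of each list stand against 11.1% higher and 9.06% lower of all tested genes. Of 18 T and NK cell markers, 13 were higher (72.2%), with a summed level of 42.9 to 49.3 CPM in MRL/lpr and 11.7 to 13.5 CPM in MRL/mpj. Of 12 B cell markers, 7 were tested and 1 was higher (14.3%), and the sums were 31.4 to 32.9 and 22.2 to 25.5 CPM. One of these markers was at 0 counts throughout, namely Cr2, which was picked with its values in view. Of 12 dendritic cell markers, 3 were higher (25%), with sums of 739 to 844 and 576 to 599 CPM. These 3, named after their values were seen, were Siglecg at 18.5 against 4.15 CPM, Ccr7 at 15.8 against 8.69 CPM and Fscn1 at 674 against 501 CPM. Most of the summed level was thus Fscn1. At an unadjusted p under 0.05 in edgeR, 5 dendritic cell markers were higher and 3 were lower. The lower ones, also chosen after their values were seen, were Flt3, Clec9a and Irf4, at -0.77, -1.56 and -0.23 on the log2 scale. Monocyte markers summed to 669 to 773 and 688 to 711 CPM, with 5 of 12 higher (41.7%) and 2 lower (16.7%). Neutrophil markers summed to 1488 to 1663 and 1457 to 1495 CPM, with 3 of 12 higher (25%). Fn1, at 531 against 497 CPM, made up most of the monocyte sum. Csf3r, at 783 against 867 CPM, was the largest part of the neutrophil sum. Both were named after their values were seen, and these sums say little of the other markers. Border macrophage markers summed to 64.8 to 68.7 and 65.6 to 72.1 CPM, with 1 of 12 higher (8.33%) and 2 lower (16.7%). Endothelial markers, with 2 of 12 higher and 2 lower (16.7% each), summed to 2850 to 3167 and 2809 to 2868 CPM. Among 12 markers each, 4 neuron (33.3%), 4 oligodendrocyte (33.3%) and 2 astrocyte markers (16.7%) were lower, as were 8 ependymal or choroid plexus markers (66.7%), at 374 to 389 against 1124 to 1200 CPM, and no marker on these lists passed the test as higher. The part of any of these cell types in the changes was not tested.

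Among 9769 other genes with a mean log2 CPM of at least 3, the profile of Nfkbiz over the 6 libraries was most like those of Cd300lf, Fam102b and Gbp4. The Euclidean distances of the centred log2 CPM values were 0.13, 0.21 and 0.21. Cd300lf, a receptor gene of the CD300 family, had 291, 289 and 257 CPM in MRL/lpr replicates 1, 2 and 3 and 78.6, 81.8 and 86.8 CPM in the MRL/mpj replicates. The 3 genes rose by 1.76, 1.82 and 1.595 on the log2 scale, against 1.73 for Nfkbiz. This likeness is a description over 6 libraries that fall into 2 strains.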

How the data were processed

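The 6 libraries were made from CD11b-selected brain cells, 3 for each strain. The authors deposited raw counts per gene and FPKM per library. Per the labels and methods, reads were filtered with Cutadapt 1.9.3 and aligned with HISAT2 2.0.4, the build was GRCm38, and Cufflinks and Cuffdiff 2.2.1 are also named. The counting tool is not given in the sources used here. The labels describe removal of ribosomal RNA with a stranded kit, and the methods describe purification of mRNA. GENCODE M21 on GRCm38 matched 55141 of 55401 identifiers.

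Counts were tested with edgeR 4.0.16 in R 4.3.3 (filterByExpr at its count minimum of 10 and total minimum of 15, TMM, robust quasi-likelihood test, Benjamini-Hochberg adjustment over all tested genes, no covariates). A gene was called at an adjusted p under 0.05, and counted again where the log2 fold change reached 1 in either direction, the study's minimum. FPKM served to compare genes with each other, and shares of FPKM were compared by two-sided exact permutation over the libraries. Intervals are 95%. The steps were run on counts simulated with the dispersions fitted to these libraries, which cannot test how well the model fits them. The genes, lists and tests were chosen with earlier results of these data known. Named genes are the 10 members, IκB kinase genes, Map3k14, Nfkbib, Bcl3, Fas, genes that overlap a member, the 3 genes nearest to the member that changed most, and up to 5 genes per list and direction past both thresholds with at least 10 counts in each library. Genes named outside this rule are marked in the text. Alternatives were DESeq2 1.42.0, other normalizations, filters and dispersions, counts divided by 4 (low counts pile up at multiples of 4), the replicate number as a block, and fits that leave out 1 library.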

Additional observations from a re-analysis of the deposited data

How the results depend on the processing

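The 10 genes kept a positive log2 fold change in each of 14 alternatives, and 8 of them kept an adjusted p under 0.05 in each. Rela and Tnfaip3 did not, in the fits named above, so that 9 or 10 genes were called across the alternatives. The number past the fold-change minimum was 1 with scaling by library size only and 2 to 4 with a library left out, against 3. It was 2 with DESeq2, without the filter and with the replicate block. With that scaling 2 target genes were lower, against 1. The deviations of same-numbered libraries from their strain means correlated at -0.08, -0.09 and -0.10. Those of libraries with different numbers correlated at 0.02 to 0.07. Such small values over all genes cannot settle whether the replicate numbers pair the libraries. With the replicate block 4 genes of the other inhibitors were higher, against 7, and all 10 NF-kB genes were still called. Over all 19554 tested genes, 1754 were higher with this block, against 2178 without it. With a library left out, upstream signalling had 6 to 13 higher and 0 to 1 lower genes, against 10 and 0, the other inhibitors had 4 to 6 higher, and the target genes had 21 to 27 higher and 1 lower. The lowest of these, 6 and 4, came without MRL/mpj replicate 2, where 1647 of all 20450 tested genes were higher. The share of Nfkbie in the inhibitor FPKM differed by 0.037 percentage points and by -0.109 to 0.186 points with a library left out, so its sign changed. The other 9 shares kept their sign. Divided by the tissue dissociation list, 3 genes were higher without overlap, against 10. In the other alternatives the counts stayed within 1.5 times the reported ones, and the cause of these shifts was not tested.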
